A study of Danio rerio with 15 samples.

Results

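The transcripts of *lnx1*, *bmb* and *rspo1*, which were strongly raised at 24 hours post-fertilization (hpf) in zebrafish embryos depleted of Esco2, were followed across all groups of the microarray series. A probe set, the group of short probes that reports 1 transcript on the array, was taken when *lnx1*, *bmb* or *rspo1* was its only gene symbol in the platform annotation. This gave 3 probe sets, 1 for each gene, of 15502 tested probe sets, or 3 of the 8793 genes that had a probe set of their own. The genes had been picked for their difference between morphants and controls at 24 hpf, so the values at that time, and every comparison that uses them, are given as a description and without a test. The difference at 48 hpf was tested, since the arrays of that time are separate pools. Its standard error was taken from the spread of all 15 arrays, so the arrays of 24 hpf enter the test through the spread. Earlier results of the series were known when the genes were picked, and it is not known whether their values at 48 hpf had been seen, so the p-values and ranks at 48 hpf may not be fully independent of the choice.

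Esco2 is the acetyltransferase that makes cohesin hold sister chromatids together during DNA replication. Embryos of wild type background received the morpholino *esco2*_ATG, which blocks translation of the *esco2* transcript, at the 1-cell stage per the labels, and controls of the same background received buffer alone. No group had an unrelated morpholino, so the morpholino and the loss of Esco2 cannot be told apart on these arrays. Each array carried RNA from a pool of 50 dechorionated whole embryos. There were 4 arrays of controls and 4 of morphants at 24 hpf, and 3 arrays of controls (numbered 1, 3 and 4) and 4 of morphants at 48 hpf. RNA from whole embryos is a mixture, so more cells that express a gene and more RNA per cell cannot be told apart.

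*lnx1* encodes ligand of Numb protein X, a RING-type E3 ubiquitin ligase with PDZ domains. It was named for its binding to Numb, a membrane-associated antagonist of Notch that it marks for degradation in mammalian cells. *bmb*, brambleberry, is a zebrafish maternal-effect gene: its protein sits at the nuclear envelope and is needed for the fusion of the small nuclei that form around single chromosomes in the cleaving embryo. *rspo1* encodes R-spondin 1, a secreted protein that strengthens Wnt signals by binding Lgr receptors and by removing the ubiquitin ligases Znrf3 and Rnf43, which would otherwise clear Wnt receptors from the cell surface. In zebrafish it has been linked to Vegfc-dependent vessel growth and to the specification of blood stem cells through *wnt16*.

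All values are log2 values from robust multi-array averaging (RMA), in which a step of 1 is a doubling. Over all arrays the values ran from 2.43 to 14.06, and the median of single arrays lay between 5.76 and 5.92. The controls at 48 hpf were the loosest group. Their mean correlations with the other arrays of the group were 0.992, 0.985 and 0.989 in replicates 1, 3 and 4, against 0.996 to 0.997 in the other groups. Replicate 3 was the lowest, but among 3 arrays each value also depends on the others, so no single array can be set apart. Of 34 markers of the main tissues of the embryo, 27 were measured, and 22 of these lay above the median of the array on every array. Their mean level lay between 9.33 and 9.35 in controls and between 9.29 and 9.33 in morphants at 24 hpf, and between 9.54 and 9.60 in controls and 9.56 and 9.61 in morphants at 48 hpf. This mean covers single markers that differed, in both directions at 48 hpf. At 24 hpf 0 were raised by limma (3 were higher at an unadjusted p under 0.05). The 2 lowered at 24 hpf included the glial marker *gfap* (-0.50). At 48 hpf 3 were raised, with the heart genes *myh7* (0.80) and *myl7* (0.55) as the highest, and 5 were lowered, with the neural crest gene *sox10* (-0.58) as the lowest. These calls, by adjusted p alone, were 0% raised and 7.41% lowered at 24 hpf, against 5.77% and 6.20% of all genes. At 48 hpf they were 11.1% and 18.5%, against 14.3% and 11.7% of all genes. The part of these markers in the differences of *lnx1*, *bmb* and *rspo1* was not tested. The *esco2* transcript was 0.31 lower in morphants at 24 hpf (limma, standard error 0.09, adjusted p = 0.034) and 0.39 higher at 48 hpf (standard error 0.10, adjusted p = 0.0064). The call at 24 hpf ended when single arrays were left out, for example control replicate 3 (adjusted p = 0.089). The call at 48 hpf ended with each time point fitted alone (adjusted p = 0.054). As the morpholino acts on translation, the transcript level does not check the labels.

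The transcript of the ubiquitin ligase gene *lnx1* was low in all control arrays and high in all morphant arrays. In controls at 24 hpf its log2 values were 4.71, 5.24, 4.52 and 4.90 in replicates 1 to 4. In morphants at 24 hpf they were 7.65, 7.78, 7.58 and 7.50. The lowest morphant array lay 2.26 above the highest control array. At 48 hpf the values in control replicates 1, 3 and 4 were 5.44, 5.59 and 5.40, respectively. In morphants at 48 hpf they were 7.50, 7.68, 7.65 and 7.50. Here too the groups did not overlap, with 1.91 between the highest control and the lowest morphant array. The widest spread was that of the controls at 24 hpf, 4.84 ± 0.31 (SD, n = 4), where replicate 2 was the highest array. The other groups were 7.63 ± 0.12 (SD, n = 4) for morphants at 24 hpf, 5.48 ± 0.10 (SD, n = 3) for controls at 48 hpf and 7.58 ± 0.09 (SD, n = 4) for morphants at 48 hpf.

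*bmb*, the nuclear envelope fusion gene, had 2 separate levels, with control arrays near 5 and morphant arrays above 7 at both times. Its values in controls at 24 hpf were 4.99, 5.29, 5.22 and 4.82, and in morphants they were 7.66, 7.73, 7.43 and 7.74. At 48 hpf the controls had 5.19, 5.27 and 5.12 and the morphants 7.71, 7.64, 7.63 and 7.51. The gap between the highest control and the lowest morphant array was 2.13 at 24 hpf and 2.23 at 48 hpf. The group means were 5.08 ± 0.22 (SD, n = 4) and 7.64 ± 0.14 (SD, n = 4) at 24 hpf, and 5.19 ± 0.08 (SD, n = 3) and 7.62 ± 0.08 (SD, n = 4) at 48 hpf, in controls and morphants, respectively.

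*rspo1*, which encodes the Wnt-enhancing ligand, was low on the array in controls, near the 30th percentile of all probe sets. Its values were 4.49, 4.54, 4.32 and 4.28 in controls and 6.82, 6.91, 6.69 and 6.65 in morphants at 24 hpf. At 48 hpf they were 4.33, 4.80 and 4.44 in controls and 6.06, 6.06, 6.30 and 6.18 in morphants. Every morphant array was above every control array at both times, by at least 2.1 at 24 hpf and 1.26 at 48 hpf. The highest control array at 48 hpf was replicate 3, the array with the lowest mean correlation with its group. The group means were 4.41 ± 0.13 (SD, n = 4) and 6.77 ± 0.12 (SD, n = 4) at 24 hpf, and 4.52 ± 0.25 (SD, n = 3) and 6.15 ± 0.11 (SD, n = 4) at 48 hpf. Values this low on the array can be held up by background signal, so that the change in transcript may be larger than the change in value. The controls of *lnx1* and *bmb* were low as well, with lowest values of 4.52 and 4.82 at 24 hpf and 5.40 and 5.12 at 48 hpf. The same may hold for them at both times.

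**Figure D1:**
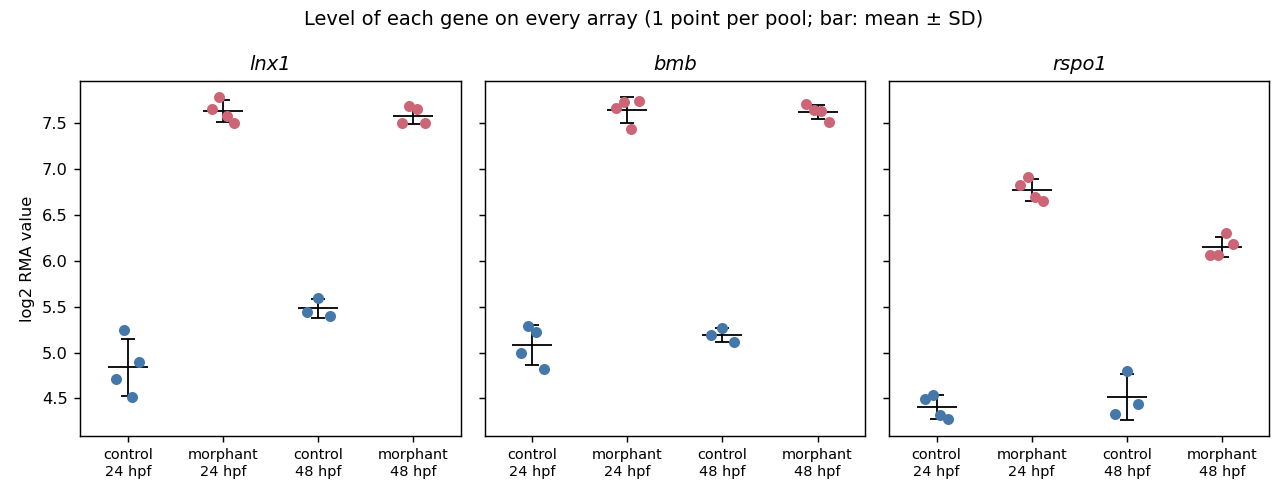
Log2 RMA value (y axis) of *lnx1*, *bmb* and *rspo1* in controls (blue) and *esco2* morphants (red) at 24 and 48 hpf (x axis). Each point is 1 array, that is 1 pool of 50 embryos, and bars give the mean ± SD of 4 arrays (3 for controls at 48 hpf). In all panels the morphant arrays lie above the control arrays at both times. The *lnx1* controls lie higher at 48 than at 24 hpf, and the *rspo1* morphants lie lower.

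Within an array, *lnx1* moved from a mean percentile of 36.0 of all probe sets in controls at 24 hpf to 75.7 in morphants. *bmb* moved from 39.6 to 75.8. *rspo1* moved from 28.9 to 63.6. At 48 hpf the percentiles in controls and morphants were 44.8 and 75.3 for *lnx1*, 40.7 and 75.8 for *bmb*, and 30.0 and 53.8 for *rspo1*. Thus all 3 genes were below the middle of the array in controls and above it in morphants at both times. Because each gene is read by other probes, the levels of the 3 genes were not set against each other.

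At 24 hpf, the time that chose them, the difference between morphants and controls was 2.79 for *lnx1* (standard error 0.12, 6.90-fold), 2.56 for *bmb* (0.10, 5.89-fold) and 2.36 for *rspo1* (0.10, 5.13-fold). By size these were the 5th, 10th and 12th of all probe sets. Probe sets were called changed when the false discovery rate was at most 5% and the change at least 2-fold. At 24 hpf 59 probe sets, or 0.381% of those tested, were raised and 0.103% were lowered. In 10.0% of probe sets all morphant arrays had higher values than all control arrays. All 3 genes were in both sets, as their choice fixed.

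At 48 hpf, *bmb* had the highest estimated rise of all tested probe sets. The next probe sets, given below, lay within its standard error, and their order was not tested. *bmb* rose 5.38-fold (95% interval 4.60 to 6.29). On the log2 scale this was a difference of 2.43 ± 0.11 (standard error), with an adjusted p of 1.2e-10 by limma. *lnx1* rose 4.31-fold (95% interval 3.58 to 5.19), or by 2.11 ± 0.13 on the log2 scale (adjusted p = 9.8e-09), which was the 7th by size. *rspo1* rose 3.09-fold (95% interval 2.63 to 3.62), or by 1.63 ± 0.11 (adjusted p = 2.9e-08), the 17th by size. Without control replicate 3 the *rspo1* difference was 1.77 (adjusted p = 1.3e-09). With the 48 hpf arrays fitted alone, the adjusted p by limma was 1.3e-06 for *bmb*, 2.1e-06 for *lnx1* and 8.8e-05 for *rspo1*. At 48 hpf 108 probe sets, 0.697% of those tested, were raised by the same criteria and 0.213% were lowered, and in 14.1% no control array reached the lowest morphant array. The count of raised probe sets was 65 without control replicate 3 and 183 without control replicate 4, and with ribosomal protein centring it was 167, with 20 lowered in place of 33. All 3 genes passed both. Centring the arrays on ribosomal protein genes shifted the whole table at 48 hpf by a median of 0.12, and the differences were then 2.54 for *bmb*, 2.23 for *lnx1* and 1.75 for *rspo1*. Between *bmb* and *lnx1* in this order stood *rps27l* (2.39), *mdm2* (2.29), *ttn.2* (2.13) and 2 probe sets without a symbol (2.38 and 2.37). *mdm2* encodes the ubiquitin ligase that limits p53.

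**Figure D2:**
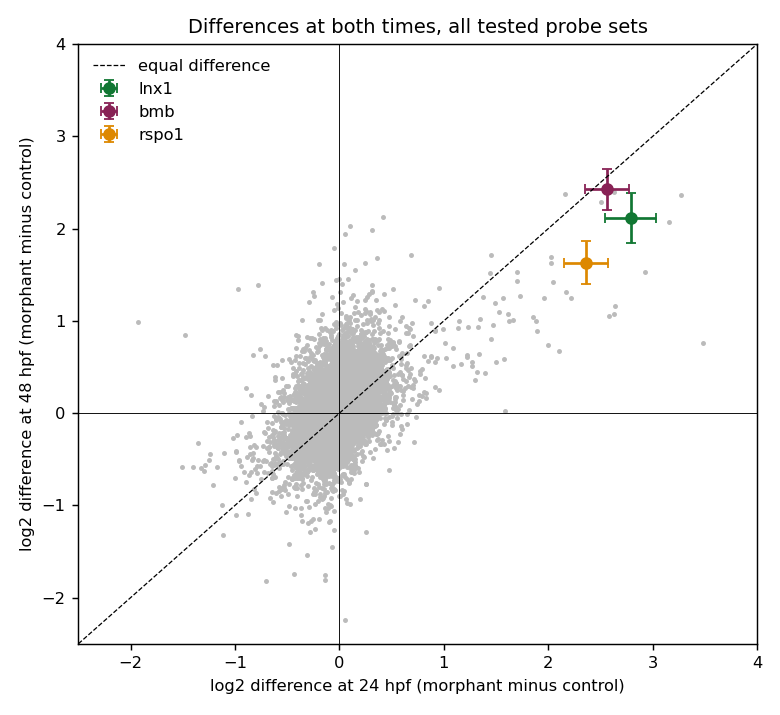
Log2 difference, morphant minus control, at 24 hpf (x axis) against that at 48 hpf (y axis) for all 15502 tested probe sets (grey), with *lnx1*, *bmb* and *rspo1* in colour. Bars are 95% intervals, and the dashed line marks equal differences. *bmb* (2.56 and 2.43) lies at the line, while *lnx1* (2.79 and 2.11) and *rspo1* (2.36 and 1.63) lie below it. All 3 genes were chosen for their place on the x axis.

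The genes kept different shares of their 24 hpf difference. On the log2 scale, *bmb* had 94.9% of it at 48 hpf, *lnx1* 75.7% and *rspo1* 69.0%. Among the 59 probe sets raised at 24 hpf, of which 32 were also raised at 48 hpf, this share had a median of 64.0% and ran from 1.13% to 118%. *bmb* was the 4th highest of the 59 by this share, *lnx1* the 18th and *rspo1* the 25th. The difference at 48 hpf minus that at 24 hpf was -0.13 for *bmb* (95% interval -0.44 to 0.18), -0.68 for *lnx1* (-1.04 to -0.31) and -0.73 for *rspo1* (-1.04 to -0.42).

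These shares and changes use the 24 hpf values that chose the genes. A choice for large differences at 24 hpf by itself favors smaller ones at 48 hpf, so the values and their intervals are given only as a description of these arrays. In controls *lnx1* was 0.63 higher at 48 than at 24 hpf (95% interval 0.37 to 0.90). By size this was only the 1271st highest change of 15502 probe sets. The control arrays of the 2 times did not overlap, but the share of all probe sets that separate the times was not counted. In morphants it was nearly the same at both times, with a change of -0.05 (95% interval -0.29 to 0.20). For *rspo1* the change in morphants was -0.61 (95% interval -0.83 to -0.40), the 14575th from the highest of 15502, again without overlap. In controls *rspo1* changed by 0.12 (95% interval -0.11 to 0.35). *bmb* changed by 0.11 in controls (95% interval -0.11 to 0.34) and by -0.02 in morphants (95% interval -0.23 to 0.19). Ordered by level, *lnx1* therefore ran from controls at 24 hpf to controls at 48 hpf to both morphant groups, whose arrays overlapped. *bmb* had both control groups overlapping at the bottom and both morphant groups overlapping at the top. *rspo1* had both control groups overlapping, then morphants at 48 hpf, then morphants at 24 hpf.

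**Figure D3:**
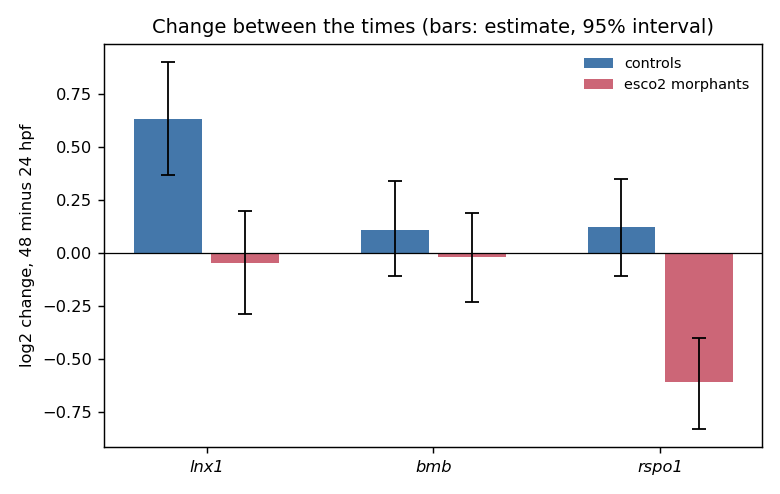
Change in log2 value from 24 to 48 hpf (y axis, 48 minus 24 hpf) for *lnx1*, *bmb* and *rspo1* (x axis) in controls (blue) and *esco2* morphants (red). Bars start at 0 and show the estimate of the linear model over all 15 arrays, with 95% intervals. The tallest bars are those of *lnx1* in controls (0.63) and *rspo1* in morphants (-0.61). The genes were chosen on their 24 hpf values, so the bars and intervals are a description and no test.

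Across the 15 arrays the 3 genes had much the same profile, which follows mostly from the gap between morphants and controls by which they were chosen. Pearson's r was 0.981 for *lnx1* and *bmb*, 0.968 for *bmb* and *rspo1* and 0.963 for *lnx1* and *rspo1*. After the group means were taken away, the values of single arrays went together less, with r of 0.235, 0.324 and 0.517, respectively. Compared with all other genes, *bmb* was the 2nd most similar to *lnx1*, and *lnx1* the 2nd most similar to *bmb*. *rspo1* was less close, the 6th for *lnx1* and the 4th for *bmb*.

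The genes most like each member were then taken by Pearson's r over the 15 arrays, from 8167 genes with a gene name and leaving out the other members, whose r is given above. For *lnx1* they were *lemd1* (r = 0.993), *mmp2* (0.974), *parp3* (0.972), *ccng1* (0.965) and *gtpbp1l* (0.959). *lemd1* encodes a LEM domain protein, *mmp2* a matrix metalloproteinase and *ccng1* cyclin G1. For *bmb* they were *parp3* (0.983), *lemd1* (0.979), *arpc5b* (0.967), *ccng1* (0.966) and *phlda3* (0.966). For *rspo1* they were *gtpbp1l* (0.989), *phlda3* (0.988), *plk3* (0.972), *rps27l* (0.971) and *taf1c* (0.970). These values describe 15 arrays in 4 groups and carry no test, since any gene with a like gap between the groups reaches a high r.

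The sizes of the differences were not alike in these genes. *lemd1*, the closest to *lnx1*, differed by 1.23 at 24 hpf and 0.94 at 48 hpf, less than *lnx1* at both times. *parp3*, the closest to *bmb*, differed by 1.44 and 1.52, so its gap was as large at 48 as at 24 hpf. *gtpbp1l*, the closest to *rspo1*, differed by 2.17 and 1.31, and *phlda3*, which encodes a pleckstrin homology domain protein, by 3.16 and 2.07. An r above 0.95 was reached by 7 genes for *lnx1*, 9 for *bmb* and 11 for *rspo1*. When group means were removed, no gene reached this r, and the closest were *nkl.4* for *lnx1* (0.851), *ccdc102a* for *bmb* (0.852) and *pnrc2* for *rspo1* (0.886). Their differences between morphants and controls were small, 0.05 and -0.05 for *nkl.4*, -0.19 and -0.46 for *ccdc102a*, and -0.11 and -0.14 for *pnrc2*, at 24 and 48 hpf. *nkl.4* was low on the array, with group means of 3.19 to 3.32, so its values may be mostly background signal. Each of these r is the highest of 8167 genes and carries no test.

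**Figure D4:**
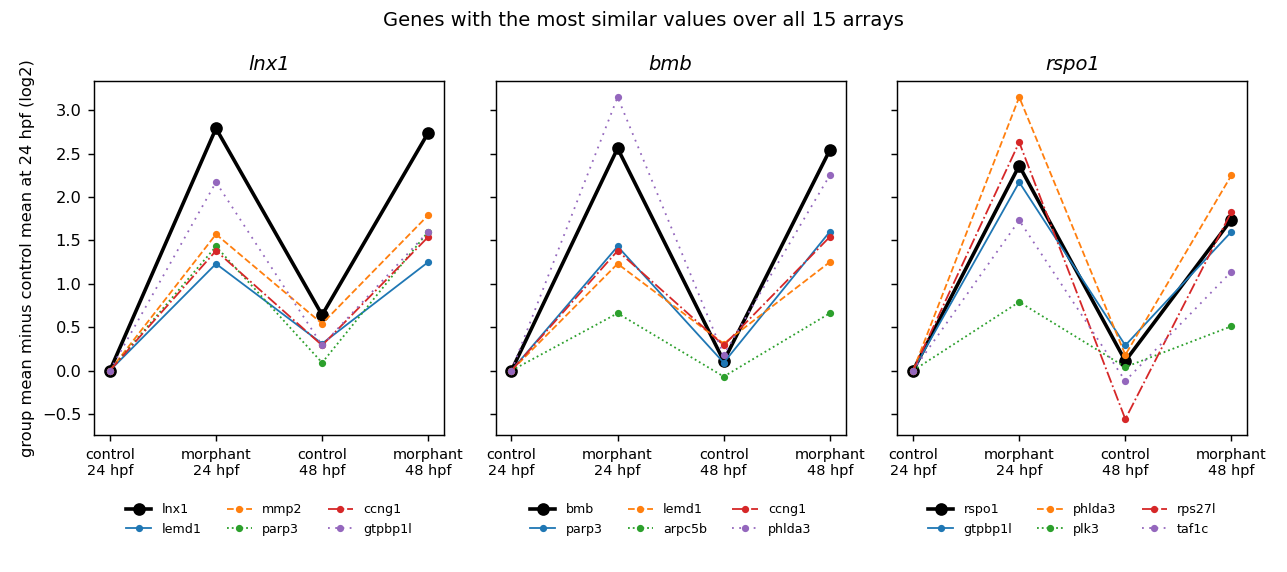
Group means of *lnx1*, *bmb* and *rspo1* (black) and of the 5 genes other than the members with the highest Pearson's r to each over 15 arrays (coloured), as log2 difference (y axis) from the control mean at 24 hpf of the same gene, in the 4 groups (x axis). Lines join the groups for reading only. In every curve both morphant means lie above both control means, but the heights differ: *lemd1* differs by 1.23 at 24 hpf where *lnx1* differs by 2.79.

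The genes next to each member on the chromosome were looked up in the RefSeq gene table of assembly GRCz12tu, with 3 protein-coding genes on each side. The members lie on 3 different chromosomes. Beside *lnx1*, 3 of 6 neighbours were measured. *rasl11b*, which encodes a Ras-like small GTPase, was raised by 1.89 at 24 hpf (standard error 0.09, adjusted p = 6.5e-11) and by 0.89 at 48 hpf (standard error 0.09, adjusted p = 4.4e-06). It is the third gene on its side, and *scfd2*, which lies between it and *lnx1*, did not pass the test, with 0.09 and -0.09. The receptor gene *kita* on the other side had 0.05 and -0.17 and did not pass either. Its mean in controls at 24 hpf was only 3.82, a level at which background signal may hide a change. Beside *rspo1*, 5 of 6 neighbours were measured. The transcription factor gene *pou3f1* was lowered by 0.81 at 24 hpf (adjusted p = 4.4e-05) and by 0.60 at 48 hpf (adjusted p = 0.00072). The other 4 did not pass the test at 24 hpf and rose at 48 hpf, by 0.59 for *gnl2* (adjusted p = 0.00081), 0.53 for *utp11* (0.006), 0.43 for *dnali1* (0.016) and 0.39 for *fhl3a* (0.048). The calls of *utp11*, *dnali1* and *fhl3a* ended under 1 or more alternatives, such as leaving out control replicate 4 for *dnali1* (adjusted p = 0.077). For comparison, 5.77% of all genes were raised and 6.20% lowered at 24 hpf by adjusted p alone, and 14.3% and 11.7% at 48 hpf. Whether the neighbours and the members change together was not tested. Neighbours of *bmb* were not analysed here.

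The pathways of the members were read from lists of genes with known roles, and a gene was called at an adjusted p of at most 0.05 over all probe sets, without a fold. Among all 8793 genes, 5.77% were raised and 6.20% lowered at 24 hpf, and 14.3% were raised and 11.7% lowered at 48 hpf. The median difference over all genes was 0.008 at 24 hpf and 0.01 at 48 hpf. In the lists around the 3 members no gene rose 2-fold at either time. The one that fell 2-fold was *her4.2* at 24 hpf. The members were chosen for large rises at 24 hpf and the list genes for their roles. Larger differences of the members at 24 hpf therefore follow from the choice, and those at 48 hpf may depend on it.

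Of the *lnx* family and Numb, *lnx2a* and *lnx2b* were measured, and *numb* was not analysed here. The related ligase gene *lnx2a* differed by 0.02 at 24 hpf and was lowered by 0.37 at 48 hpf (adjusted p = 0.017), a call that ended without control replicate 3 (adjusted p = 0.067) and with ribosomal protein centring (0.079). *lnx2b* did not pass, with -0.03 and -0.06. Of 39 genes of Notch signaling 26 were measured. At 24 hpf 2 were raised and 7 lowered, with a median of -0.17, and at 48 hpf 3 were raised and 6 lowered, with a median of -0.03. The ligand genes *dla* (-0.89, adjusted p = 3.1e-07), *jag1a* (-0.61, 0.0013) and *dlb* (-0.50, 0.00065) were lowered at 24 hpf. They were also lowered at 48 hpf, by 0.47 (adjusted p = 0.00042), 0.70 (0.00036) and 0.42 (0.0022). Not all ligand genes fell: *jag1b* was raised by 0.36 at both times (adjusted p = 0.017 and 0.013). *jag2b* and *dld* did not pass at either time, and *dlc* was lowered only at 24 hpf. The target gene *her4.2* was lowered by 1.33 at 24 hpf (standard error 0.15, adjusted p = 1.1e-05) and by 0.60 at 48 hpf (adjusted p = 0.012), the latter not without control replicate 4 (0.062). It belongs to a cluster of near-identical copies, which the probes may not tell apart. *her2*, of the same family of transcription factors, was lowered by 0.71 at 24 hpf (adjusted p = 6.4e-06) and raised by 0.62 at 48 hpf (adjusted p = 4.7e-05). *her9* was raised at both times, by 0.37 (adjusted p = 0.0012) and 0.42 (4e-04).

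Around *rspo1*, 9 of 28 listed R-spondins, receptors and secreted Wnt antagonists were measured, and all 9 were antagonists. The other R-spondins, the Lgr receptors, *znrf3*, *rnf43* and *wnt16* were not analysed here. Of the antagonists 2 were raised and 1 lowered at 24 hpf, and 3 were raised and 0 lowered at 48 hpf by limma, where 0 were lower at an unadjusted p under 0.05 as well and the lowest difference was -0.24. *dkk1b*, which encodes an inhibitor of the Wnt co-receptor, was raised by 0.59 at 24 hpf (standard error 0.07, adjusted p = 1.5e-05) and had a difference of -0.01 at 48 hpf. *sfrp1a*, for a secreted Frizzled-related protein, was lowered by 0.98 at 24 hpf (adjusted p = 6.6e-05). *sost*, for sclerostin, was raised by 0.69 at 48 hpf (adjusted p = 4.7e-05), after a difference of 0.27 at 24 hpf whose call lay at the threshold (adjusted p = 0.05). *dkk3b* (0.52, adjusted p = 0.0087) and *wif1* (0.36, 0.0091) were raised at 48 hpf. The call of *dkk3b* ended without control replicate 1 (0.051), and that of *wif1* with each time point fitted alone (0.067).

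Of 38 Wnt ligands and Frizzled receptors 18 were measured, and 1 was raised and 2 lowered at each time. The receptor gene *fzd9b* was lowered by 0.54 at 24 hpf (adjusted p = 0.00016) and by 0.35 at 48 hpf (0.0049). *fzd8a* and the ligand gene *wnt5b* had smaller differences, -0.24 and -0.30 for *fzd8a* and 0.28 and 0.30 for *wnt5b*, and all of these calls ended when single arrays were left out. Of 27 genes that carry the signal through β-catenin 17 were measured. At 24 hpf 0 were raised and 1 lowered, and at 48 hpf 0 were raised and 5 lowered, with medians of -0.06 and -0.24 (limma; 0 were higher at an unadjusted p under 0.05 at either time). *lef1*, a transcription factor that binds β-catenin, differed by 0.09 at 24 hpf and was lowered by 0.75 at 48 hpf (standard error 0.08, adjusted p = 7e-06). The corepressor gene *tle2a* was lowered at both times, by 0.51 (adjusted p = 0.00069) and 0.55 (3e-04). *pygo2*, for a β-catenin cofactor, was lowered by 0.40 at 48 hpf (0.0053). *tcf7l2* was lowered by 0.34 (0.012), which ended without control replicate 1 (0.066). With ribosomal protein centring 3 of the 17 were lowered and 1 was raised at 48 hpf.

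Of 28 known target genes of β-catenin 22 were measured. The list had 4 raised and 2 lowered at 24 hpf and 4 raised and 3 lowered at 48 hpf, with medians of 0.07 and -0.08. *axin2*, the feedback inhibitor that most often serves as a readout of the pathway, was 0.22 lower at 24 hpf (adjusted p = 0.047). That call ended under 14 of 22 alternatives, among them leaving out control replicate 2 (adjusted p = 0.15). *gbx1*, a homeobox gene, was lowered by 0.80 (adjusted p = 9.6e-06) and 0.86 (7.6e-06). *myca* was raised by 0.39 (0.0023) and 0.50 (0.00021), and the cyclin gene *ccnd1* was raised by 0.52 at 48 hpf (0.00083). *mycb* was raised by 0.54 at 24 hpf (adjusted p = 0.00048). *gbx2* was raised by 0.34 at 24 hpf (0.017), not without control replicate 4 (0.058), and was lowered by 0.39 at 48 hpf (0.0052). *pax2a* was lowered by 0.43 at 48 hpf (0.0032).

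The genes linked to *rspo1* in vessels and blood stem cells were 11 measured of 19, with 2 raised and 1 lowered at 24 hpf and 3 raised and 2 lowered at 48 hpf. *vegfc*, the growth factor gene through which R-spondin 1 acts on vessels in zebrafish, was raised by 0.30 at 24 hpf (standard error 0.08, adjusted p = 0.024) and by 0.26 at 48 hpf (standard error 0.09, adjusted p = 0.041). Both calls ended when single arrays were left out, for example morphant replicate 4 at 24 hpf (0.083). Its receptor gene *flt4* was raised by 0.36 at 24 hpf (0.02), and not without morphant replicate 1 (0.071). *dlc*, for a Notch ligand, was lowered by 0.54 at 24 hpf (0.0055). At 48 hpf *vegfaa* was raised by 0.55 (0.00087) and *gata2a*, for a transcription factor of blood stem cells and endothelium, was lowered by 0.57 (0.00044). The endothelial receptor gene *kdrl* was raised by 0.42 (adjusted p = 0.032), which ended without control replicate 3 (0.16), and *tal1* was lowered by 0.31 (0.021), which ended without control replicate 4 (0.084).

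Around *bmb*, 29 of 47 genes of the nuclear envelope, lamina and pore were measured. At 24 hpf 0 were raised and 2 lowered, and at 48 hpf 4 were raised and 1 lowered, with medians of -0.04 and 0.04 (limma; 0 were higher at an unadjusted p under 0.05 at 24 hpf). The lowered genes at 24 hpf were *kpna2*, for an importin (-0.29, adjusted p = 0.0083), and *lbr*, for the lamin B receptor (-0.35, 0.033), whose call ended without control replicate 1 (0.099). At 48 hpf *syne1b*, for a nesprin that ties the nucleus to the cytoskeleton, was lowered by 0.56 (adjusted p = 0.00024), and the nuclear pore gene *nup54* was raised by 0.41 (0.0048). The pore genes *nup35* (0.34, 0.032) and *nup43* (0.34, 0.028) were raised too, but not without control replicate 3 (0.15) and control replicate 4 (0.14), respectively. Leaving out single arrays gave 1 to 5 raised genes of this list at 48 hpf.

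As *bmb* is a maternal-effect gene, genes of the egg and germ cells were read as well, with 32 of 43 measured. The list had 2 raised and 1 lowered at each time, and medians of 0.07 and 0.03. The germ cell gene *nanos3* was raised by 0.53 at 24 hpf (adjusted p = 0.0018), and *gtsf1* (0.45, 0.00052) and the histone gene *h1-10* (0.58, 0.0055) were raised at 48 hpf. Whether the genes of this list, such as *h1-10*, are limited to the egg and germ cells was not tested. *sycp1*, for a protein of the synaptonemal complex, was raised by 0.28 at 24 hpf (0.032), not without control replicate 2 (0.093). The pluripotency gene *pou5f3* was lowered by 0.27 and 0.32 (adjusted p = 0.044 and 0.015), calls that ended with ribosomal protein centring (0.088 and 0.11). The *bmb* differences were 2.56 and 2.43, but *bmb* was chosen for its large rise at 24 hpf, so the sizes are not a fair comparison.

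**Figure D5:**
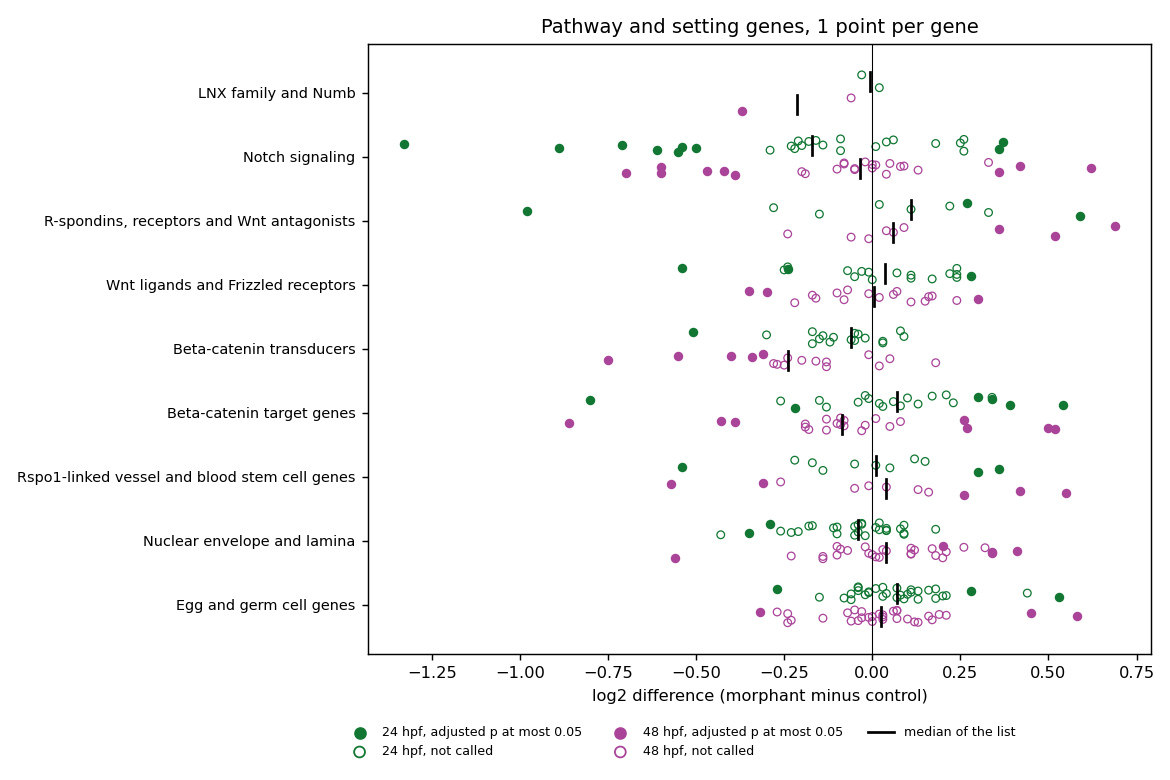
Log2 difference, morphant minus control (x axis), of each measured gene of the 9 lists around *lnx1*, *bmb* and *rspo1* (y axis), at 24 hpf (green, upper row) and 48 hpf (purple, lower row). Filled points have an adjusted p of at most 0.05 from limma, and black bars are list medians. All points lie between -1.33 and 0.69, while the 3 members, which are not drawn, lie between 1.63 and 2.79. The members were chosen for large rises at 24 hpf, so this gap is a description only.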

How the data were processed

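The deposited values are log2 expression values that the authors made by RMA (background correction, quantile normalization and summarization by probe set) and were used as given. Versions of those tools are not given in the sources used here. Replicate 2 of the controls at 48 hpf was not analysed here. The precision is limited by the number of arrays, which carry no read depth. The annotation gave 1 symbol to 10795, several to 135 and none to 4572 of 15502 probe sets, after 115 Affymetrix control probe sets of 15617 were left out. 1 symbol was updated through its gene ID. A gene with several probe sets was read from the one with the highest mean.

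Python 3.11.15 with pandas 2.3.3 was used to join the tables, and figures were drawn with matplotlib 3.10.9. A mean per group was fitted to all 15 arrays with limma 3.58.1 in R 4.3.3 (lmFit, eBayes). Adjusted p-values are two-sided, by Benjamini-Hochberg over all probe sets. Simulated arrays with known shifts were used to test the code. The labels call the replicates biological. No 2 arrays held the same values.

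The members and gene lists were chosen with earlier results of these data known. Named genes were the members, *esco2*, up to 4 genes of each list with the smallest adjusted p at each time, pathway genes named in advance, the 5 genes most like each member, and chromosomal neighbours, which were added later. The Notch ligand genes *jag1b*, *jag2b* and *dld* were added beside the other ligands. These ligand genes and the genes most like each member were not followed under alternatives or among the flagged results. The tissue markers were kept out of the flagged results unless another list held them. Alternatives were a replicate block, each time fitted alone, brighter probe sets, cyclic loess, centring on 71 ribosomal protein genes, another moderation, array weights and leaving out each array.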

Additional observations from a re-analysis of the deposited data

Results flagged for a closer look

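For none of the 9 groups of 4 arrays of *lnx1*, *bmb* and *rspo1* did a single array stand apart by Dixon's criterion. Among 162 such groups of other named genes, 8 had an array far from the rest, and chance gives about 1 in 20 groups. The gap of the farthest array as a share of the range of the group was 0.842 for *esco2* and 0.853 for *nup54* in morphants at 48 hpf, 0.878 for *myca* in the same group and 0.864 for *gata2a* in morphants at 24 hpf. In controls at 24 hpf it was 0.867 for *gbx2*, 0.834 for *gnl2*, 0.922 for *lnx2b* and 0.902 for *rasl11b*.

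For 13 of 54 named genes other than the members, the difference between morphants and controls differed between the times (limma, adjusted p of the interaction at most 0.05). The genes most like each member, such as *phlda3* and *gtpbp1l*, were not among the 54 and were not tested for this. Many of these genes were named for a small adjusted p at 1 of the times in these data, which by itself favors such a result. The share over all genes was not counted, so the number is a description only. The difference at 48 hpf minus that at 24 hpf was positive for *her2* (1.33, adjusted p = 5.5e-06), *sfrp1a* (0.74, 0.027), *esco2* (0.71, 0.0039), *vegfaa* (0.68, 0.007), *dlc* (0.67, 0.027) and *dla* (0.42, 0.031). It was negative for *rasl11b* (-1.0, adjusted p = 0.00022), the neighbour of *lnx1*, and for *lef1* (-0.84, 0.00033), *gbx2* (-0.73, 0.0023), *gata2a* (-0.72, 0.0039), *dkk1b* (-0.59, 0.0017), *pax2a* (-0.52, 0.021) and *syne1b* (-0.51, 0.018).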

How the results depend on the processing

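At 48 hpf *lnx1*, *bmb* and *rspo1* kept their direction and their call under every alternative that gave a value, 22 for *lnx1* and *bmb*. *rspo1* had none among brighter probe sets, where it fell below the limit of 5.86. Leaving out each array gave differences of 2.07 to 2.17 for *lnx1*, 2.39 to 2.47 for *bmb* and 1.53 to 1.77 for *rspo1*, with adjusted p of at most 4.1e-07. The other alternatives gave 2.04 to 2.23, 2.38 to 2.54 and 1.57 to 1.75, with adjusted p of at most 8.8e-05. At 24 hpf leaving out each array gave 2.68 to 2.92, 2.47 to 2.63 and 2.31 to 2.40.

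At 24 hpf the deviations of same-numbered control and morphant arrays had r of 0.02 to 0.20, against -0.25 to 0.11 for unlike numbers. At 48 hpf r was -0.45 to -0.08 for the same number, against -0.27 to 0.42. Same-numbered arrays thus went together slightly more at 24 hpf but not at 48 hpf. The main fit did not pair samples by number, and a replicate block was tried as an alternative. With the replicate block the differences at 48 hpf were 2.04 for *lnx1*, 2.39 for *bmb* and 1.61 for *rspo1*, and 109 probe sets were raised and 31 lowered.

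The counts over all probe sets moved more, and the cause was not tested. Raised probe sets at 48 hpf numbered 65 to 183 when arrays were left out (65 without control replicate 3 and 183 without control replicate 4), against 108. Lowered probe sets at 24 hpf numbered 14 to 25 (25 without morphant replicate 4), against 16. Centring on ribosomal protein genes gave 167 raised and 20 lowered at 48 hpf, so that 89.3% of calls were rises, against 76.6% from 108 raised and 33 lowered. Among brighter probe sets, of which fewer were tested, 21 were lowered at 48 hpf. Of 792 list counts under alternatives, 160 were beyond 1.5 times the count given.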
